A study of Mus musculus with 8 samples.

Results

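The genes described are 10 components of the Wnt and β-catenin pathway, chosen by name: *Ctnnb1*, *Apc*, *Axin1*, *Axin2*, *Lef1*, *Tcf7*, *Tcf7l2*, *Rnf43*, *Znrf3* and *Nkd1*. They are 10 of the 39089 genes counted in each sample. The tumors came from Myc-CaP, a prostate cancer cell line of the mouse that a *MYC* transgene drives. Its cells carried a control vector (labelled Myc-CaP EV and called control here) or, in the *Arid1a* KO, a guide RNA that targets *Arid1a*. They grew under the skin of male FVB mice, 6 weeks old per the labels. From day 16 the mice were gavaged daily for 2 weeks with JSH-23, an inhibitor of the nuclear entry of the NF-κB subunit p65, dissolved in DMSO and diluted in corn oil, or with corn oil as the vehicle. RNA-seq was run on tumor cells gated as EpCAM-positive and CD45-negative, and each of the 4 groups has 2 samples. All 4 groups share the cell line, the host strain and the subcutaneous site, and whether the lines were clonal or a sample was 1 tumor is not given in the sources used here. The p-values therefore measure the spread between these samples, which may be technical.

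In the canonical Wnt pathway, a secreted Wnt protein binds a Frizzled receptor together with the co-receptor Lrp5 or Lrp6 and halts a destruction complex built on Axin and Apc. β-catenin, the product of *Ctnnb1*, then escapes degradation, enters the nucleus and binds a TCF/LEF factor, and genes such as *Axin2*, *Lef1*, *Rnf43*, *Znrf3* and *Nkd1* are classically switched on and feed back on the pathway. β-catenin also links cadherins to the actin cytoskeleton at epithelial junctions, and its amount is set largely by protein degradation, which RNA-seq does not measure.

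Total counts lay between 16401581 and 21972231 per sample, so that 3 counts, taken as the lowest level told from 0, were worth between 0.137 and 0.183 CPM (counts scaled to a library of 1000000). Such limits cover counting error only. Under vehicle, *Arid1a* was lower in *Arid1a* KO (104 ± 2.13 CPM, SD, n = 2) than in control tumors (159 ± 4.04 CPM), and it was lower under JSH-23 too (94.9 ± 1.49 against 150 ± 7.72 CPM). The samples were checked against the epithelial label. *Epcam*, the sorting marker, had between 0 and 4 counts in every sample, *Cdh1* had between 1 and 19 counts, and *Krt18* stayed under 1 CPM, whereas *Krt8* reached 113 CPM and *Krt19* reached 104 CPM. The summed level of the 6 epithelial markers under vehicle was 98.6 to 109 CPM in control and 224 to 228 CPM in *Arid1a* KO tumors, and under JSH-23 it was 53.4 to 53.7 and 190 to 198 CPM, so that this list moved with both the genotype and the treatment. Markers of other cells also differed between groups. The sum of 10 myeloid markers was 19.5 to 21.4 CPM in control and 19.9 to 22.1 CPM in *Arid1a* KO tumors under vehicle, and 10.4 to 19.9 and 10.02 to 12.8 CPM under JSH-23, mostly from *Cd68* and *Lyz2*, with *Ly6g* at 0. The sum of 9 fibroblast markers was 61.5 to 71.1 CPM in 3 of the groups and 42.0 to 48.2 CPM in JSH-23-treated *Arid1a* KO tumors, mostly from *Pdgfra*. Leukocyte markers summed to 1.65 to 1.84 CPM in control and 0.884 to 1.07 CPM in *Arid1a* KO tumors under vehicle, and to 0.486 to 1.56 and 0.672 to 0.757 CPM under JSH-23, and 6 endothelial markers lay between 0.823 and 2.05 CPM throughout. The part of these lists in the results was not tested. In such bulk samples, fewer cells of a type and less RNA per cell cannot be told apart.

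Sequences upstream of transcription starts are shown for 4 of the 10 genes, to set the abundant *Ctnnb1* beside the barely counted target genes *Axin2* and *Lef1* and the TCF factor *Tcf7l2*. Each is the 250 bases before a RefSeq start on GRCm38.p6, printed 5′ to 3′ on the strand of the gene, with CG dinucleotides in capitals. *Ctnnb1* lies on the plus strand of chr9:120933400-120960507, and its window is chr9:120933150-120933399. *Axin2* lies on the plus strand of chr11:108917828-108950783, and its window, chr11:108920099-108920348, falls within the annotated gene. *Lef1* lies on the plus strand of chr3:131110297-131224357, and its window is chr3:131110047-131110296. *Tcf7l2* lies on the plus strand of chr19:55741797-55933659, and its window is chr19:55741560-55741809.
Ctnnb1: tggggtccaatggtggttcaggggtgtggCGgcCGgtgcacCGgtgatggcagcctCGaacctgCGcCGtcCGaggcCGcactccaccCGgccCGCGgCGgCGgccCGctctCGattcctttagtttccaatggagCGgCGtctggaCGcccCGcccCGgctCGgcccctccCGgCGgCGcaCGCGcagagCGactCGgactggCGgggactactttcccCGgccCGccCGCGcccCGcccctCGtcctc
Axin2: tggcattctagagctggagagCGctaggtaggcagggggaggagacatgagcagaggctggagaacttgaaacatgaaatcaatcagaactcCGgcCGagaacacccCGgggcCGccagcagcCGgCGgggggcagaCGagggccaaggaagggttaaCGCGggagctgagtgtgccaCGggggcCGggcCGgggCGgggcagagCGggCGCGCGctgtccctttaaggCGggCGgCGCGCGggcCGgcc
Lef1: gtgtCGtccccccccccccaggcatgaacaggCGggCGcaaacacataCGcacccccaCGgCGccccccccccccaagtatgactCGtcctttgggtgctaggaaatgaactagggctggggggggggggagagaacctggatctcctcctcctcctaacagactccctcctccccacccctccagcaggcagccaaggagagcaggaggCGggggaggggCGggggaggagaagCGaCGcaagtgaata
Tcf7l2: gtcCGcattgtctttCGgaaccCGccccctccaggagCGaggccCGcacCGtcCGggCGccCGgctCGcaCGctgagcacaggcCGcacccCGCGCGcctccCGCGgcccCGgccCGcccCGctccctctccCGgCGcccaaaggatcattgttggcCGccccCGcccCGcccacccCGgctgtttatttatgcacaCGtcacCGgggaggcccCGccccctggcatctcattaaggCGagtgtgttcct
The *Ctnnb1* window held 35 CG dinucleotides, the *Tcf7l2* window 30, the *Axin2* window 24 and the *Lef1* window 11, against a median of 6 over the 32851 start windows of the table. In all, 7 of the 10 genes had 14 such windows, and *Apc*, *Axin1* and *Znrf3* had no entry. The TCF/LEF core CTTTGA, searched on both strands, was present in 1 of the 14 windows, an internal start of *Lef1* at chr3:131156044-131156293, and in 13.8% of all windows. A match describes letters and not a bound site.

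The pathway was uneven at the RNA level. *Ctnnb1* was high, and *Axin1* and *Apc* of the destruction complex were expressed in every sample. The TCF/LEF genes among the 10 were low, and 4 of the 5 classical feedback targets were barely counted. *Ctnnb1* was the most abundant of the 10, at 238 to 332 TPM (counts divided by gene length and scaled to a sum of 1000000), and its mean lay above that of 97.0% of the tested genes. *Axin1*, a scaffold of the destruction complex, followed at 49.4 to 60.7 TPM, with a mean above that of 78.4% of the tested genes. *Apc*, the tumor suppressor that holds β-catenin in the complex and lies on chromosome 18, stood at 12.1 to 17.4 TPM. Its mean lay above that of 48.3% of the tested genes. *Znrf3*, a ubiquitin ligase that removes Frizzled from the cell surface (chr11:5276329-5444847, minus strand), stood at 10.03 to 16.8 TPM, and its range overlapped that of *Apc*. *Axin1* lies on the plus strand of chr17:26131217-26195811.

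The DNA-binding partners among the 10 were low. *Tcf7l2* was at 3.94 to 6.15 TPM and *Tcf7*, on the minus strand of chr11:52246527-52283383, at 0.204 to 0.565 TPM. The divisor in the TPM of *Tcf7* is its deposited length of 10946 bases. *Rnf43*, the partner ligase of *Znrf3* (chr11:87663087-87735539, plus strand), was at 0 to 0.216 TPM and overlapped *Tcf7*. *Nkd1*, an inhibitor that binds Dishevelled (chr8:88521342-88594887, plus strand), was at 0 to 0.1002 TPM, *Axin2* at 0 to 0.0511 TPM and *Lef1* at 0 to 0.0617 TPM. The ranges of these last 4 genes overlapped from one to the next.

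**Figure D1:**
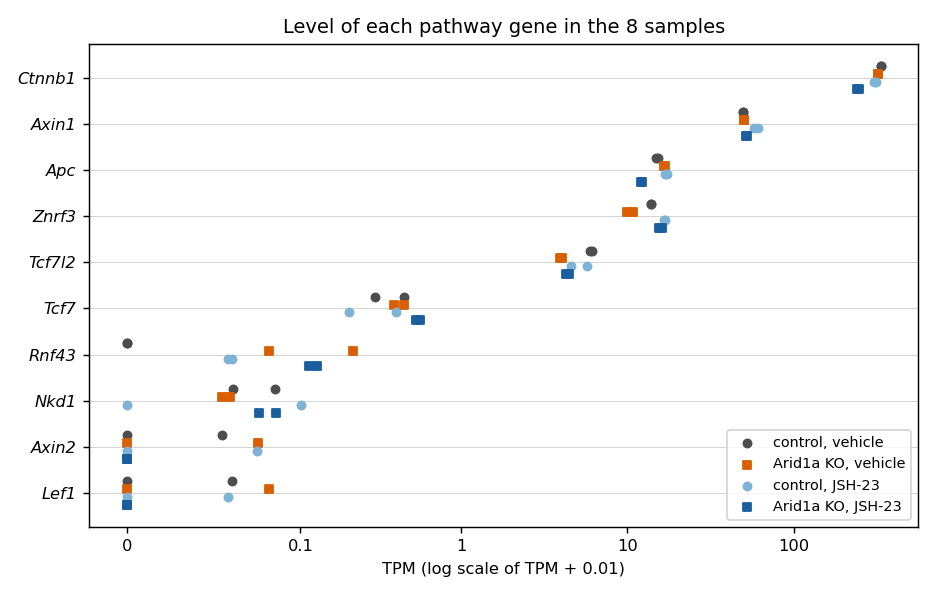
Each point is 1 of the 8 samples, with the gene on the vertical axis and its TPM on a log scale of TPM + 0.01 on the horizontal axis. *Ctnnb1* sits between 238 and 332 TPM and *Axin1* between 49.4 and 60.7 TPM, whereas *Nkd1*, *Axin2* and *Lef1* stay at or under 0.1002 TPM in every sample.

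The counts behind the lowest genes were few. *Axin2*, the scaffold most widely read as a reporter of β-catenin activity, had 1 and 0 counts in vehicle-treated control tumors, 2 and 0 in vehicle-treated *Arid1a* KO tumors, 2 and 0 in JSH-23-treated control tumors, and 0 and 0 in JSH-23-treated *Arid1a* KO tumors. *Lef1* had 0 and 1, 2 and 0, 1 and 0, and 0 and 0 counts in the same order. *Nkd1* had 2 and 1, 1 and 1, 0 and 3, and 2 and 3 counts. Over the 8 samples these came to 5 counts of *Axin2*, 4 of *Lef1* and 13 of *Nkd1*. None of the 3 exceeded 3 counts in a sample, so a difference between groups was not detectable at this depth, and no fold change was computed.

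*Rnf43* also failed the filter on low counts, but its few reads fell mostly on one side. It had 0 and 0 counts in vehicle-treated control tumors, 1 and 1 in JSH-23-treated control tumors, 2 and 8 in vehicle-treated *Arid1a* KO tumors, and 5 and 5 in JSH-23-treated *Arid1a* KO tumors. Every *Arid1a* KO sample was above every control sample, with 20 counts in the KO samples and 2 in the controls. Such separation is common: the genotypes did not overlap, in either direction, for 74.0% of all tested genes under vehicle and 70.7% under JSH-23. A share for genes as low as *Rnf43* was not computed. The levels were 0.252 ± 0.114 CPM (SD, n = 4) and 0.0292 ± 0.0337 CPM (SD, n = 4). No test is given, since a two-sided exact permutation test of genotype within treatment has 36 arrangements and cannot go below p = 0.0556.

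The 6 genes that passed the filter (*Ctnnb1*, *Apc*, *Axin1*, *Znrf3*, *Tcf7l2* and *Tcf7*) were tested within the 13921 retained genes, with the quasi-likelihood test of edgeR and Benjamini-Hochberg adjustment. All adjusted p-values below are from this test unless another is named. The common biological coefficient of variation was 1.61%, and small changes passed the test. A second line, a change of 1.5-fold, is therefore given beside it. With the coefficient set to 0.1 instead, *Tcf7l2* and *Znrf3* still passed in vehicle-treated tumors. So did *Znrf3* with JSH-23 in *Arid1a* KO tumors. The only other differences that passed were those of *Tcf7*, under JSH-23 and with JSH-23 in *Arid1a* KO tumors. SE stands for the standard error of a log2 change. For *Tcf7* this setting was not stricter where genotype was compared under vehicle, with an SE of 0.296 against 0.322 in the main fit.

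Loss of *Arid1a* was first compared with control in vehicle-treated tumors. The clearest differences were lower *Tcf7l2* and lower *Znrf3*, with β-catenin and the destruction complex nearly level. Among the 6 tested genes, 1 rose (*Apc*) and 3 fell (*Tcf7l2*, *Znrf3* and *Ctnnb1*) at an adjusted p under 0.05, where 25.0% of all tested genes rose and 25.5% fell. The groups did not overlap for 5 of the 6, as for 74.0% of all tested genes. With the 1.5-fold line added, 1 gene, *Tcf7l2*, remained, where 12.6% of all tested genes did. The median log2 fold change was -0.02 for the 6 genes and 0.00 for all tested genes.

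*Tcf7l2* was at 15.5 and 15.8 CPM in control and 10.1 and 10.4 CPM in *Arid1a* KO tumors. The KO samples lay below the controls without overlap. The change was -0.61 on the log2 scale (SE 0.11, adjusted p = 3.01e-06), or 1.53-fold lower. With limma on log2(TPM + 1) it was -0.50, short of 1.5-fold, and on log2(TPM + 0.1) it was -0.595, past 1.5-fold. *Znrf3* was at 42.1 and 42.1 CPM in control and 33.0 and 30.3 CPM in *Arid1a* KO tumors, a log2 change of -0.41 (SE 0.065, adjusted p = 1.20e-07). Both KO samples lay below both controls. *Apc* was at 82.4 and 80.4 CPM in control and 90.7 and 89.3 CPM in *Arid1a* KO tumors, a log2 change of 0.14 (adjusted p = 0.00320). The *Apc* difference did not pass on log2(TPM + 1) (limma, adjusted p = 0.0553).

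*Ctnnb1* was at 476 and 476 CPM in control and 460 and 454 CPM in *Arid1a* KO tumors, a log2 change of -0.06 (adjusted p = 0.0126). This small difference did not pass with DESeq2 (adjusted p = 0.0561) or with scaling by library size only (adjusted p = 0.165), nor without control replicate 2 (0.0556) or without *Arid1a* KO replicate 2 (0.103). *Axin1* was at 81.8 and 81.3 CPM in control and 82.5 and 82.4 CPM in *Arid1a* KO tumors, a log2 difference of 0.02 (95% interval from -0.07 to 0.10). *Tcf7* was at 1.959 and 1.29 CPM in control and 1.93 and 1.70 CPM in *Arid1a* KO tumors, and these groups overlapped. Its log2 difference was 0.15 with an interval from -0.48 to 0.79, so that at this depth a change in either direction could have been missed.

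**Figure D2:**
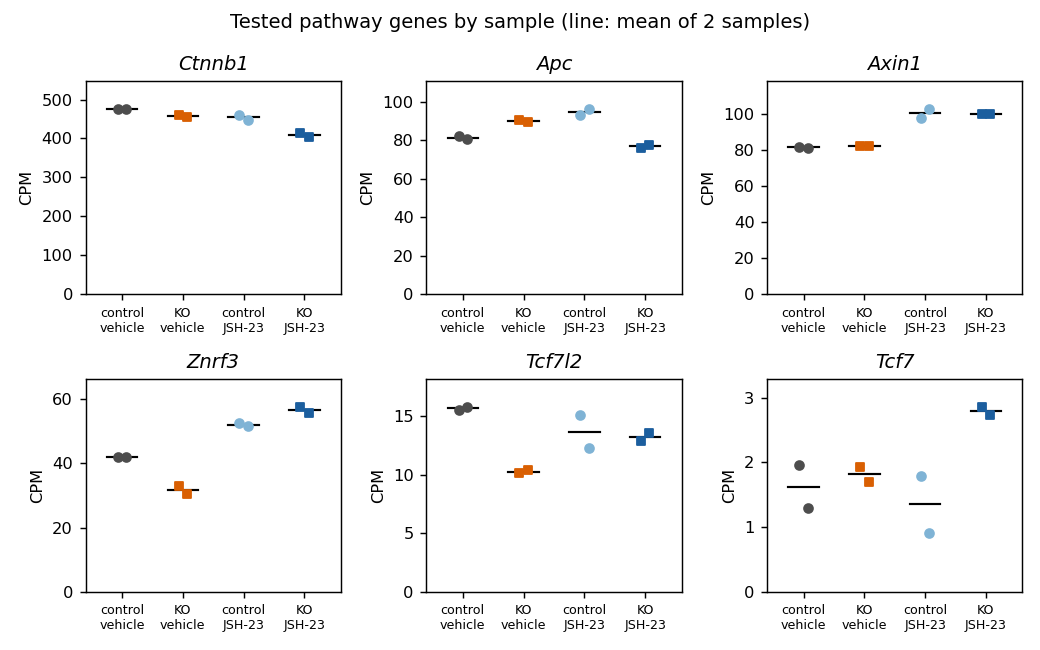
Each panel is 1 of the 6 tested genes, with CPM on the vertical axis from 0, the 4 groups on the horizontal axis, a point per sample and a line at the mean of the 2 samples. *Tcf7l2* and *Znrf3* are lowest in vehicle-treated *Arid1a* KO tumors, at 10.2 and 31.7 CPM on average, and *Tcf7* is highest in JSH-23-treated *Arid1a* KO tumors, at 2.80 CPM.

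The same genotypes were compared under JSH-23. Here *Apc* and *Ctnnb1* were lower and *Tcf7* was higher in *Arid1a* KO tumors, while *Tcf7l2* and *Znrf3* were close to the controls. Of the 6 tested genes, 1 rose and 2 fell at an adjusted p under 0.05 (23.2% and 23.8% of all tested genes), and 1, *Tcf7*, also passed the 1.5-fold line (8.71% of all tested genes). The groups did not overlap for 4 of the 6, and for 70.7% of all tested genes. The median log2 fold change was -0.03, against -0.01 for all tested genes. On log2(TPM + 1) the median of all tested genes was -0.16 here.

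*Tcf7*, a TCF factor best known from T cells, had 32 and 15 counts in control and 53 and 57 counts in *Arid1a* KO tumors. These are 1.79 and 0.912 CPM against 2.86 and 2.73 CPM, with both KO samples above both controls. The log2 change was 1.03 (SE 0.31, adjusted p = 0.00404), or 2.05-fold. It rested on the lower control library: without control replicate 2 under JSH-23 the change was 0.64. On log2(TPM + 1) limma gave 0.25 (adjusted p = 0.0871), and on log2(TPM + 0.1) it gave 0.73 (adjusted p = 0.0910). For a gene under 1 TPM, adding 1 shrinks the log2 change. Of 10 T-cell markers, 9 had 3 counts or fewer in every sample and *Cd3d* and *Cd8a* were at 0, and the sum of the list was 0.279 to 0.304 CPM in control and 0.811 to 0.863 CPM in *Arid1a* KO tumors under JSH-23, mostly from *Lck*. With vehicle the sum was 0.353 to 0.356 CPM in control and 0.939 to 1.21 CPM in *Arid1a* KO tumors. The part of T cells in the *Tcf7* result was not tested.

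*Apc* was at 93.1 and 96.4 CPM in control and 75.9 and 77.7 CPM in *Arid1a* KO tumors under JSH-23, a log2 change of -0.30 (SE 0.042, adjusted p = 7.64e-09). This was the opposite sign to the vehicle comparison. *Ctnnb1* was at 460 and 448 CPM in control and 413 and 403 CPM in *Arid1a* KO tumors, a log2 change of -0.16 (adjusted p = 2.62e-09). These 2 changes on log2(TPM + 1) were -0.46 and -0.35, or -0.30 and -0.19 relative to the median of all genes. *Znrf3* was at 52.5 and 51.7 CPM in control and 57.7 and 55.7 CPM in *Arid1a* KO tumors. The groups did not overlap, but the log2 difference of 0.12 did not pass (adjusted p = 0.0692). On log2(TPM + 1) it turned to -0.06, or 0.09 relative to the median of all genes. A fit of only these groups gave 0.13 (adjusted p = 0.0449). *Tcf7l2* was at 15.1 and 12.3 CPM in control and 12.9 and 13.5 CPM in *Arid1a* KO tumors, overlapping, with a log2 difference of -0.05 (95% interval from -0.26 to 0.16). *Axin1* was at 98.0 and 103 CPM in control and 100.3 and 100.3 CPM in *Arid1a* KO tumors, a log2 difference of -0.00 (95% interval from -0.08 to 0.08). On log2(TPM + 1) *Axin1* passed at -0.19 (adjusted p = 0.00215), or -0.03 relative to the median of all genes.

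JSH-23 was next compared with vehicle within each genotype. In control tumors *Axin1*, *Znrf3* and *Apc* rose and *Ctnnb1* fell, all by less than 1.5-fold. These are 3 genes higher and 1 lower at an adjusted p under 0.05, where 28.6% of all tested genes rose and 27.2% fell, and none passed the 1.5-fold line, which 15.8% of all tested genes did. The groups did not overlap for 5 of the 6 genes, and for 76.4% of all tested genes. The median log2 fold change was 0.08, against -0.01 for all tested genes. *Axin1* went from 81.8 and 81.3 CPM to 98.0 and 103 CPM, a log2 change of 0.30 (SE 0.042, adjusted p = 6.34e-09). *Znrf3* went from 42.1 and 42.1 CPM to 52.5 and 51.7 CPM, or 1.24-fold higher (log2 0.31, adjusted p = 1.23e-05). Neither gene had overlapping groups. *Apc* changed by 0.22 on the log2 scale (adjusted p = 1.33e-05) and *Ctnnb1* by -0.07 (adjusted p = 0.00499). The *Ctnnb1* change did not pass without control replicate 2 under JSH-23 (adjusted p = 0.0975). *Tcf7l2* differed by -0.19 (adjusted p = 0.127), which did pass without control replicate 1 under JSH-23 (-0.35, adjusted p = 0.0265). *Tcf7* differed by -0.25 with overlapping samples (adjusted p = 0.555).

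In *Arid1a* KO tumors all 6 tested genes passed the adjusted p, and *Znrf3* moved most clearly. Of the 6, 4 rose (*Znrf3*, *Tcf7*, *Tcf7l2* and *Axin1*) and 2 fell (*Apc* and *Ctnnb1*), where 33.4% of all tested genes rose and 34.4% fell. None of the 6 had overlapping groups, as for 82.9% of all tested genes. With the 1.5-fold line, 2 were higher, *Znrf3* and *Tcf7*, where 9.10% of all tested genes were higher and 26.0% passed in either direction. The median log2 fold change was 0.33, against -0.02 for all tested genes. This comparison was sensitive to scaling: the median over all tested genes was -0.13 with library size only and -0.20 on log2(TPM + 1).

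*Znrf3* went from 33.0 and 30.3 CPM to 57.7 and 55.7 CPM, with no overlap. The log2 change was 0.84 (SE 0.060, adjusted p = 1.76e-20), or 1.79-fold, and it was 0.56 on log2(TPM + 1), which is 0.77 above the median of all genes on that scale. *Tcf7l2* went from 10.1 and 10.4 CPM to 12.9 and 13.5 CPM, a log2 change of 0.37 (SE 0.11, adjusted p = 0.00275). The *Tcf7l2* rise did not pass on log2(TPM + 1) (0.11, adjusted p = 0.374), where it was 0.31 above the median of all genes.

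*Tcf7* went from 1.93 and 1.70 CPM to 2.86 and 2.73 CPM, a log2 change of 0.63 (SE 0.29, adjusted p = 0.0480). This is at the edge of the threshold: DESeq2 gave an adjusted p of 0.178, scaling by library size only gave 0.106, and leaving out any of the 4 *Arid1a* KO samples gave between 0.0811 and 0.208. *Axin1* went from 82.5 and 82.4 CPM to 100.3 and 100.3 CPM, a log2 change of 0.28 (adjusted p = 5.60e-09). On log2(TPM + 1) the *Axin1* difference was 0.04 (adjusted p = 0.272), which is 0.25 above the median of all genes there. *Apc* changed by -0.23 on the log2 scale (adjusted p = 2.21e-06) and *Ctnnb1* by -0.16 (adjusted p = 1.95e-10). The changes of *Apc* and *Ctnnb1* on log2(TPM + 1) were -0.44 and -0.40, or -0.23 and -0.20 relative to the median of all genes.

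**Figure D3:**
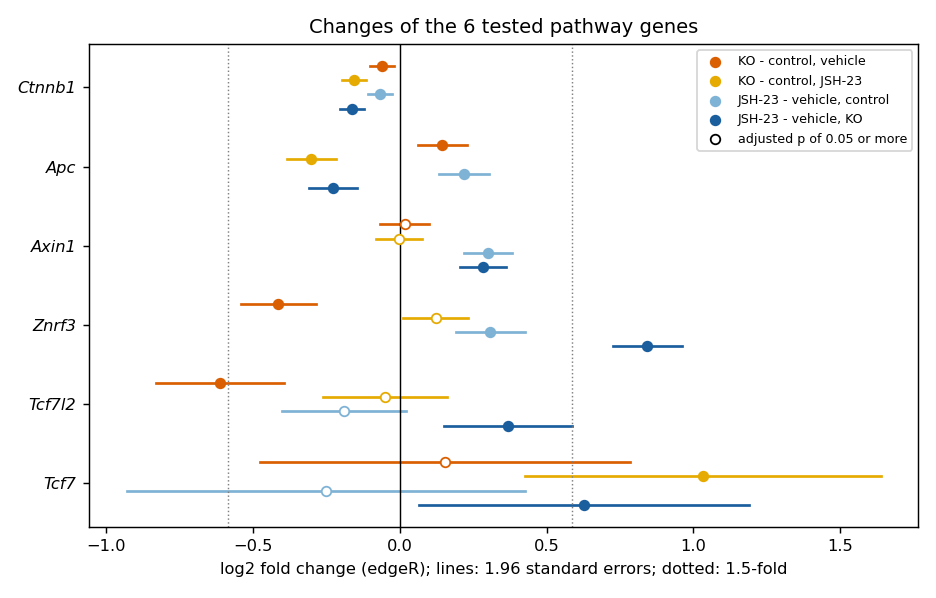
The log2 fold change of each of the 6 tested genes is on the horizontal axis, with a line for its 95% interval, in 4 comparisons (colors); filled points passed an adjusted p of 0.05, open points did not, and dotted lines mark 1.5-fold. *Apc* is at 0.22 with JSH-23 in control and at -0.23 in *Arid1a* KO tumors, whereas *Axin1* is at 0.30 and 0.28.

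The difference between the genotypes in the response to JSH-23 was tested directly as an interaction. The 4 groups enter more than 1 comparison each, so the values above share samples. Of the 6 tested genes, 2 had a higher response in *Arid1a* KO tumors (*Tcf7l2* and *Znrf3*) and 2 a lower one (*Apc* and *Ctnnb1*) at an adjusted p under 0.05, where 20.5% of all tested genes had a higher response and 17.9% a lower one. None passed both the adjusted p and the 1.5-fold line, which 9.07% of all tested genes did. The interaction was 0.54 for *Znrf3* (SE 0.086, adjusted p = 3.58e-07), 0.56 for *Tcf7l2* (SE 0.15, adjusted p = 0.00243) and -0.45 for *Apc* (SE 0.060, adjusted p = 3.88e-09). *Apc* thus moved in opposite directions in the 2 genotypes, and *Znrf3* moved up in both, by unequal amounts. The interaction of *Ctnnb1* was -0.10 (adjusted p = 0.00660) and did not pass with DESeq2 (adjusted p = 0.0618), nor without control replicate 1 (0.0592) or *Arid1a* KO replicate 2 (0.0701) under JSH-23. *Axin1* gave -0.02 (95% interval from -0.13 to 0.10), and *Tcf7* gave 0.88 (adjusted p = 0.118), which passed without control replicate 1 under JSH-23 (1.46, adjusted p = 0.0265). On log2(TPM + 1) the median of all genes was -0.17. There *Tcf7l2* did not pass (0.31, adjusted p = 0.117), at 0.48 relative to the median. *Axin1* did pass there (-0.21, adjusted p = 0.00943), at -0.05 relative to the median.

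The other pathway genes were taken from 8 lists by role, 127 genes in all, of which 78 passed the filter and 37 had 3 counts or fewer in every sample. Of all 39089 genes, 13921 passed it. Few genes stayed at 3 counts or fewer among receptors (3 of 16), the cytoplasmic relay (1 of 25) and nuclear partners (1 of 19). More did among ligands and their secretion (9 of 21), secreted inhibitors (8 of 16) and other targets (10 of 21). The same held for R-spondins and their receptors (5 of 7) and junction partners (4 of 8). Among the TCF/LEF genes, *Tcf7l1*, whose product mostly represses, was the most abundant at 51.4 to 65.6 TPM, above every sample of *Tcf7l2*. Among ligands, *Wnt4* reached 51.4 to 110 TPM, *Wnt7b* 38.0 to 69.0 TPM and *Wnt5a* 6.59 to 28.3 TPM. *Porcn*, the acyltransferase that lipidates Wnt proteins, was at 26.9 to 50.3 TPM, but *Wls*, the carrier that brings them to the surface, had only 2 to 10 counts in a sample. *Lrp5* was at 137 to 163 TPM and *Lrp6* at 23.9 to 30.4 TPM. *Rspo1*, *Rspo2*, *Rspo3* and *Rspo4*, the R-spondin ligands that inhibit Rnf43 and Znrf3, had at most 2 counts in a sample, while their receptors *Lgr4* and *Lgr6* stood at 11.6 to 22.0 and 15.6 to 29.0 TPM.

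Of the 21 other Wnt target genes listed, 10 had 3 counts or fewer in every sample. *Lgr5*, *Sp5* and *Notum* did not exceed 2 counts, and *Dkk1* and *Ascl2* had none. Others were abundant, such as *Ccnd1* at 73.0 to 193 TPM, *Sox9* at 89.6 to 168 TPM and *Cd44* at 66.0 to 94.3 TPM, genes that also answer to other pathways. *Apcdd1*, also listed among the secreted Wnt inhibitors, was at 16.1 to 27.9 TPM, and *Ephb3* was at 4.85 to 6.99 TPM. In all, 9 of the 21 had a mean of at least 1 CPM. At the junction, *Ctnna1* (α-catenin) was at 217 to 265 TPM and *Jup* (plakoglobin) at 69.2 to 79.6 TPM, while *Cdh2* and *Cdh3* had at most 2 counts and *Cdh1*, as above, at most 19.

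**Figure D4:**
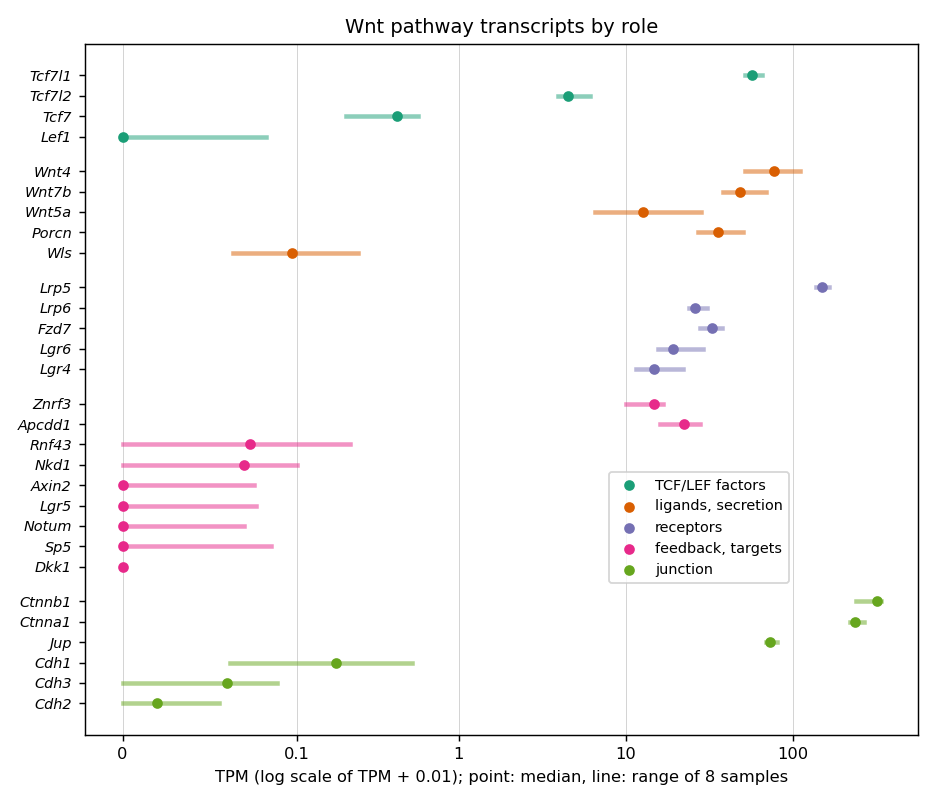
Transcripts are grouped by role on the vertical axis, with TPM on a log scale of TPM + 0.01 on the horizontal axis; points are medians and lines the range of the 8 samples. *Tcf7l1* and *Lrp5* lie above 50 TPM, whereas *Lef1*, *Axin2*, *Lgr5*, *Notum*, *Sp5* and *Dkk1* have a median of 0 TPM.

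With loss of *Arid1a* under vehicle, 20 of the 78 tested list genes rose and 31 fell at an adjusted p under 0.05 (median log2 fold change -0.06, against 0.00 for all tested genes), and 5 rose and 4 fell by 1.5-fold as well. Of all tested genes, 25.0% rose, 25.5% fell and 12.6% passed both lines. Of the 21 genes for ligands and their secretion, 9 were tested, with 2 higher and 3 lower at the adjusted p, all 3 by 1.5-fold, and a median log2 fold change of 0.26. *Wnt5a*, a largely non-canonical Wnt, was at 93.6 ± 2.84 CPM (SD, n = 2) in control and 40.6 ± 0.536 CPM in *Arid1a* KO tumors (log2 -1.20, adjusted p = 4.23e-31). *Wnt4* was at 166 ± 0.945 and 94.3 ± 0.0670 CPM (log2 -0.82, adjusted p = 4.79e-29). Frizzled receptors moved both ways, with *Fzd4* higher (log2 0.77, adjusted p = 1.58e-15) and *Fzd2* lower (log2 -0.64, adjusted p = 2.02e-12). *Siah1b* and *Siah2*, ubiquitin ligases, rose by 0.84 and 0.71 on the log2 scale, and *Ctnnbip1*, which blocks β-catenin from TCF factors, rose by 0.60. *Myc* rose from 16.9 ± 0.489 to 55.0 ± 0.509 CPM (log2 1.70, adjusted p = 9.44e-31), in a line that also carries a *MYC* transgene.

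Under JSH-23, 14 of the 78 rose and 29 fell in *Arid1a* KO tumors (median -0.04, against -0.01), with 2 higher and 9 lower by 1.5-fold as well. Of all tested genes, 23.2% rose, 23.8% fell and 8.71% passed both lines. *Wnt4* (log2 -0.70, adjusted p = 5.38e-25) and *Wnt5a* (log2 -0.83, adjusted p = 2.67e-18) were again lower. The receptor *Fzd6* (log2 -0.72), the GSK3-binding *Frat2* (-0.80), the Apc relative *Apc2* (-0.60), the corepressor *Tle2* (-0.85) and the kinase *Hipk2* (-0.64) also fell. *Myc* was higher in *Arid1a* KO tumors here too, at 23.3 ± 1.52 CPM (SD, n = 2) against 12.9 ± 0.609 CPM (log2 0.86, adjusted p = 1.17e-12). *Wnt10b*, at 1.23 and 2.37 CPM in control and 1.03 and 0.959 CPM in *Arid1a* KO tumors, passed narrowly (log2 -0.84, adjusted p = 0.0445). It did not pass with DESeq2 (adjusted p = 0.143) or without control replicate 2 under JSH-23 (-0.31, adjusted p = 0.630).

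With JSH-23, 26 of the 78 rose and 26 fell in control tumors (median 0.01, against -0.01 for all tested genes), and 4 rose and 5 fell by 1.5-fold as well. Of all tested genes, 28.6% rose, 27.2% fell and 15.8% passed both lines. In *Arid1a* KO tumors 27 rose and 29 fell (median 0.02, against -0.02), and 2 rose and 7 fell by 1.5-fold as well, where 33.4% of all tested genes rose, 34.4% fell and 26.0% passed both lines. *Ccnd1*, which encodes cyclin D1, fell from 244 ± 1.64 to 116 ± 5.70 CPM in control (log2 -1.07, adjusted p = 1.18e-40) and from 283 ± 6.04 to 137 ± 2.81 CPM in *Arid1a* KO tumors (log2 -1.05, adjusted p = 7.02e-43). *Wnt5a* fell in both genotypes, by 1.01 and 0.63 on the log2 scale. *Bcl9l*, a β-catenin coactivator, likewise fell by 0.65 and 0.77. The R-spondin receptor *Lgr4* rose in both, by 0.83 and 0.73 on the log2 scale, and so did the Notch ligand *Jag1*, by 0.71 and 0.67. Also past the 1.5-fold line in control tumors were *Lgr6* (log2 -0.64), *Ror1* (-0.77), *Frat2* (1.42) and *Tle2* (0.66). Also past it in *Arid1a* KO tumors were *Myc* (-1.24), *Siah1b* (-1.06) and *Wnt10b* (-1.31).

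By their pattern over the 8 samples, the tested genes most like *Tcf7* were *Mtg1* (Pearson r = 0.961 of log2 CPM), *Dera* (r = 0.942) and *Gm12315* (r = 0.941). These describe 8 samples in 4 groups that share their depth and preparation. *Axin2* and *Lef1* had too few counts for such a comparison.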

How the data were processed

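RNA-seq of sorted tumor cells was analysed in 4 groups of 2 samples, assigned from the labels. Reads were aligned to GRCm38/mm10; the paper names TopHat2 with the best match kept, while the submitters' processing notes name HISAT2, HTSeq and DESeq2. The authors counted reads per gene with HTSeq-count, and the deposited counts are whole numbers. The authors also deposited TPM, which equals count divided by length scaled to 1000000 per sample (largest difference 4.8e-06). A series-wide TPM table was not used.

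Counts were filtered with filterByExpr (13921 of 39089 genes), scaled by TMM factors of 0.949 to 1.03 and fitted over the 8 samples with a mean per group in edgeR 4.0.16 (R 4.3.3). CPM are TMM-scaled. A change passed at a Benjamini-Hochberg adjusted p under 0.05, or with 1.5-fold besides. Alternatives were DESeq2 1.42.0, limma 3.58.1 with trend on the TPM values (pseudocount 1 or 0.1), library size only, a filter of 10 counts per sample or none, a replicate block, only the groups compared, a biological coefficient of variation of 0.1, and leaving out each sample. Scripts were tested on simulated data. Samples of a group differed by more than sampling noise (chi-square per degree of freedom 1.46 to 1.57) and were kept apart. The 10 genes and the gene lists were chosen with earlier results of these data known. Of each list, up to 3 genes per comparison were named by largest change among those past both lines with a mean of at least 1 CPM, besides abundance examples picked after their values were seen. Sequences are RefSeq's.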

Additional observations from a re-analysis of the deposited data

Results flagged for a closer look

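The response to JSH-23 differed between *Arid1a* KO and control tumors, by edgeR's interaction test with Benjamini-Hochberg adjustment, for 4 of the 10 genes and for 12 genes of the wider lists among those named for large changes. In all, 34 of the 78 tested list genes passed (15 higher and 19 lower), where 20.5% of all tested genes were higher and 17.9% lower. Values are the log2 response in *Arid1a* KO minus that in control tumors, and they do not compare levels.

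Among the 10, *Apc* gave -0.45 (adjusted p = 3.88e-09), *Ctnnb1* -0.10 (adjusted p = 0.00660), *Znrf3* 0.54 (adjusted p = 3.58e-07) and *Tcf7l2* 0.56 (adjusted p = 0.00243).

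The response was lower in *Arid1a* KO tumors for *Frat2* at -1.05 (adjusted p = 9.21e-05), *Myc* at -0.85 (3.27e-08), *Siah2* at -0.69 (4.24e-06) and *Ctnnbip1* at -0.63 (0.00101). It was also lower for *Fzd4* at -0.41 (0.000426), *Fzd6* at -0.33 (0.000992), *Hipk2* at -0.28 (1.55e-12) and *Bcl9l* at -0.12 (0.0259). The response was higher for *Fzd2* at 0.29 (adjusted p = 0.0151), *Wnt5a* at 0.38 (0.000165), *Ror1* at 0.44 (8.91e-08) and *Lgr6* at 0.52 (3.59e-08). The value of *Bcl9l* did not pass with DESeq2 (adjusted p = 0.155), nor did that of *Fzd2* (0.0954). *Wnt5a* and *Ror1* did not pass on log2(TPM + 1) (0.0606 and 0.0757).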

How the results depend on the processing

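Of 504 results for the tested genes of the 10 under alternatives, 439 kept their direction and side of the threshold, 45 no longer passed, 7 newly passed and 13 changed sign; of 804 for the other named genes, 769 and 35. The cause was not tested. Passing both lines for JSH-23 in *Arid1a* KO tumors was 1 gene with DESeq2, library size only and log2(TPM + 0.1), and 0 with log2(TPM + 1), instead of 2. With log2(TPM + 1) it was 0 in both genotype comparisons and 1 in the interaction, and log2(TPM + 0.1) gave 0 for genotype under JSH-23 and 1 for the interaction. At the adjusted p alone, both TPM scales gave 2 genes for genotype under vehicle and 3 for JSH-23 in *Arid1a* KO tumors. A coefficient of variation of 0.1 gave 2, 1, 0, 2 and 0 genes for genotype under vehicle, genotype under JSH-23, JSH-23 in control, JSH-23 in *Arid1a* KO tumors and the interaction. With 1 sample left out, where the lone sample is assumed to vary like the other groups, these 5 comparisons gave 3 to 4, 2 to 3, 3 to 5, 5 to 6 and 3 to 4 genes at the adjusted p, and 1 to 1, 0 to 1, 0 to 0, 1 to 2 and 0 to 2 past both lines; the 2 of the interaction came without control replicate 1 under JSH-23.

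Signs turned in comparisons that did not pass the adjusted p in the main fit. *Axin1* under JSH-23 became 0.0010 with at least 10 counts in every sample and 0.0048 with only the groups compared, and without single samples -0.0390 to 0.0334; its interaction was -0.0553 to 0.0171. *Znrf3* under JSH-23 became -0.0645 and -0.0680 on the TPM scales, or 0.09 and 0.13 relative to the median of all genes. Without single samples, *Tcf7* was -0.1149 to 0.4814 for genotype under vehicle and -0.8292 to 0.1361 for JSH-23 in control, and *Tcf7l2* was -0.1880 to 0.1079 for genotype under JSH-23.

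Sample numbers did not pair the samples (correlation of replicate differences -0.00822 to 0.0312 over 10103 genes). With the replicate block, the 5 comparisons gave 4, 3, 4, 6 and 4 genes at the adjusted p and 1, 1, 0, 2 and 0 past both lines. Depth limits *Axin2*, *Lef1*, *Nkd1* and *Rnf43*.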
